A study of Mus musculus with 6 samples.

Results

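The mRNA levels of 36 genes of glycolysis, lactate handling and the hypoxia response were followed in lung innate lymphoid cells (ILCs), lymphocytes without rearranged antigen receptors, that were sorted by the surface receptor KLRG1. The 36 genes were chosen by symbol and are 36 of the 52636 genes in the deposited table. All 36 passed the filter on low counts, which kept 15197 genes. Every mouse was wild type on the C57BL/6 strain, carried the Il4 4get allele, which makes cells with an active Il4 locus green fluorescent, and had received 500 ng of interleukin-33 (IL-33) intraperitoneally for 4 days before it was killed on day 5. IL-33 is an alarmin that activates group 2 ILCs (ILC2). The 2 groups were lineage-negative, CD90-positive ILCs without KLRG1 (KLRG1-negative, n = 3) and with high KLRG1 (KLRG1-positive, n = 3), each sorted to a stated purity above 90%. No group without IL-33 was analysed here, so every value describes lungs under treatment, and the labels do not say whether the libraries of a group come from separate mice. P-values therefore measure only the spread between these libraries, which may be technical.

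Glycolysis breaks glucose down to pyruvate in the cytosol. Glucose enters through SLC2A transporters, is trapped and committed by hexokinases and phosphofructokinases, and is converted through the lower enzymes to pyruvate. Pyruvate is reduced to lactate by lactate dehydrogenase and leaves the cell with a proton through SLC16A transporters, or it is carried into mitochondria and oxidised by pyruvate dehydrogenase, which pyruvate dehydrogenase kinases switch off. Under low oxygen the transcription factor HIF-1 escapes hydroxylation by the EGLN enzymes and destruction through VHL, and it binds hypoxia response elements whose core reads ACGTG or GCGTG. Activated lymphocytes are known to run glycolysis also when oxygen is present.

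Promoter sequence was taken from RefSeq (build GRCm38.p6), as the 250 bases before each transcript start, and searched for ACGTG and GCGTG on both strands. The table matched 34 of the 36 genes, and 31 of these 34 (91.2%) held at least 1 core in at least 1 window. The same was true of 59.9% of the 10510 tested genes matched, of 41.5% of all genes in the RefSeq table and of 38.6% of all 32851 windows. The core is short and contains CG, and ACGTG is also part of the E-box CACGTG, so a match is a description of letters and not a binding site. Gpi1, Tpi1 and Vhl had no core in this window. The windows printed here belong to Ldha and Slc16a3, the members with the smallest p-values and higher values in KLRG1-positive cells, to Slc16a1, the other proton-linked transporter among the members, and to Pfkfb4, the member with the most negative log2 fold change. All 4 read on the plus strand, 5′ to 3′, and capitals mark each core on either strand together with any E-box that contains it.
Ldha chr7:46845554-46845803: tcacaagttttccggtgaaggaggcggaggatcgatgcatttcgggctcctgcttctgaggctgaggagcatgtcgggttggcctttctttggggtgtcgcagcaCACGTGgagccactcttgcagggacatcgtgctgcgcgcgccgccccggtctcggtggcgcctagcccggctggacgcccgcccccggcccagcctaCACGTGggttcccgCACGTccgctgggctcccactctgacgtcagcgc
Slc16a3 chr11:120948817-120949066: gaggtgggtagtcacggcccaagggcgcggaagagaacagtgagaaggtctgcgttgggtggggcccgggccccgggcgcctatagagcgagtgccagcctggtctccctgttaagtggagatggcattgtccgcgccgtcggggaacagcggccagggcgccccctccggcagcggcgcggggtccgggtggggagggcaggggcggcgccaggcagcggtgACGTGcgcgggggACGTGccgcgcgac
Slc16a1 chr3:104638414-104638663: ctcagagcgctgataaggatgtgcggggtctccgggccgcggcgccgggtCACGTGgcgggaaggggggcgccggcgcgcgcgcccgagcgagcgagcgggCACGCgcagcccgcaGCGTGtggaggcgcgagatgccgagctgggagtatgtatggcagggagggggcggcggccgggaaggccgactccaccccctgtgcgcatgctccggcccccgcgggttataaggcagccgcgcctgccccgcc
Pfkfb4 chr9:108991652-108991901: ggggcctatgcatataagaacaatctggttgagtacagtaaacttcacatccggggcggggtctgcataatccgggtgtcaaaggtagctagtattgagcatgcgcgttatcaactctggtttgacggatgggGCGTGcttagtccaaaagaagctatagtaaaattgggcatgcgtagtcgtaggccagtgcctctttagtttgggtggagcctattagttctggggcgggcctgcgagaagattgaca
RefSeq gives Ldha 2 windows, and the one with more cores is printed. It holds 3 such stretches, 2 of them E-boxes, and the other window holds 1 core and no E-box. The Slc16a3 window holds 2, both near the transcript start. Slc16a1, whose values were lower in all 3 same-numbered pairs, holds 3 with 1 E-box, and Pfkfb4 holds 1.

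The libraries differed in depth by little, with 17323004 to 23946073 assigned counts each, but not in content. Summed CPM (library-size-scaled counts, the deposited count divided by the TMM-scaled library total in units of 1000000) of 10 ILC2 markers were 1469 to 3781 in the KLRG1-negative and 7130 to 9135 in the KLRG1-positive libraries. That list includes Klrg1, the sort marker. Of its 10 genes, 7 were higher in every KLRG1-positive library, 3 overlapped, and 0 passed with edgeR (3 higher at an unadjusted p under 0.05, and 3 with DESeq2), and Thy1, which encodes CD90, was lower in all 3 pairs. The KLRG1-negative libraries also carried RNA of other cells. Of 7 fibroblast markers, all 7 were lower in every KLRG1-positive library, with sums of 3937 to 10990 against 4.84 to 27.5 CPM, and 6 of the 7 passed the test. Of the 9 T cell markers tested, 8 were lower in every KLRG1-positive library and 1 passed with edgeR (8 lower at an unadjusted p under 0.05, and 8 with DESeq2). The 10 on the list summed to 1719 to 6353 against 537 to 673 CPM. Cd4, which the low count filter left out, had 21, 0 and 0 counts in the KLRG1-negative and 0, 1 and 0 in the KLRG1-positive libraries. Of 8 B cell markers, 7 were lower in every KLRG1-positive library and 0 passed with edgeR (8 at an unadjusted p under 0.05, and 5 with DESeq2), with sums of 7317 to 28490 against 2453 to 8487 CPM and none at 0. NK and ILC1 markers (3 of 6 lower in every KLRG1-positive library) summed to 459 to 1414 against 116 to 406 CPM. Ncr1, 1 of these 6, had 215, 275 and 0 counts against 29, 0 and 24. Over all tested genes, 9.46% were higher and 15.2% lower in every KLRG1-positive library, and edgeR called 0.125% higher and 1.21% lower. Haemoglobin and other red blood cell transcripts reached 4248 CPM in KLRG1-positive library 2 and 9.56 to 43.3 CPM elsewhere. Epithelial markers reached 577 and 511 CPM in the libraries numbered 1 and 11.8 to 99.2 CPM in the other 4, while 2 heart markers, Myh6 and Tnnt2, were at 0 in all 6. In such bulk samples, fewer cells of a type and less RNA per cell cannot be told apart, and the part of these other cells in the member values was not tested.

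**Figure D1:**
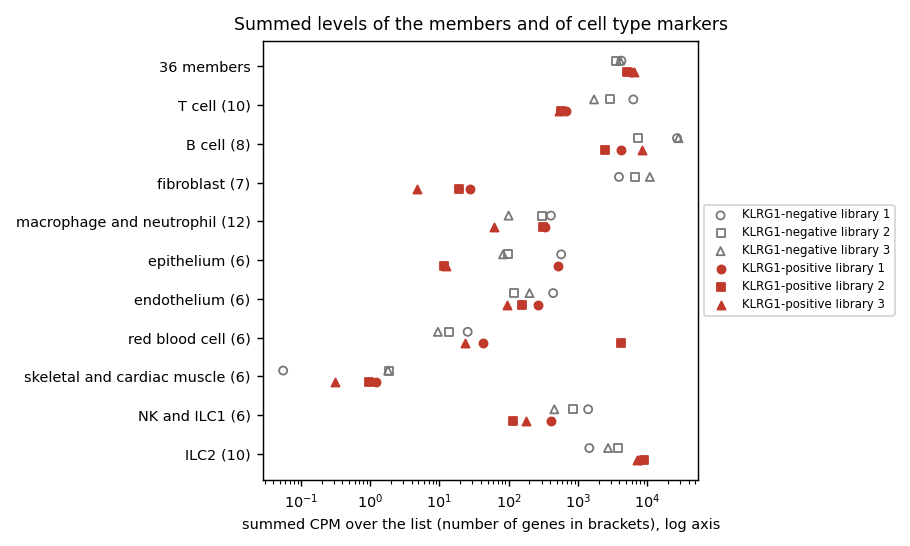
Summed CPM of the 36 members and of each cell type marker list (number of genes in brackets) on a log axis, with 1 symbol per library, open for KLRG1-negative and filled for KLRG1-positive. The members sum to 3612 to 4278 CPM in the KLRG1-negative and 5201 to 6515 CPM in the KLRG1-positive libraries, while fibroblast markers lie between 3937 and 10990 CPM in the first and between 4.84 and 27.5 CPM in the second.

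As a whole, the 36 genes stood higher in KLRG1-positive cells. Their CPM summed to 4278, 3612 and 4082 in the 3 KLRG1-negative libraries and to 5791, 5201 and 6515 in the 3 KLRG1-positive ones, so the groups did not overlap. Ldha contributed most to these sums. The log2 fold change, taken as KLRG1-positive over KLRG1-negative, was positive for 27 of the 36 members, against 46.5% of all tested genes, with a median of 0.34 against -0.05 over all tested genes. The 3 KLRG1-positive values all exceeded the 3 KLRG1-negative values for 10 members (9.46% of all tested genes) and were all lower for 4 (15.2% of all tested genes), and the libraries overlapped for 22. Across same-numbered libraries, 18 members were higher in all 3 pairs (21.7% of all tested genes) and 5 were lower in all 3 (25.1%).

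No single member passed the test. With edgeR's quasi-likelihood test and Benjamini-Hochberg adjustment over all 15197 genes, 0 members were called higher (0.125% of all tested genes were) and 0 lower (1.21%). At an unadjusted p under 0.05, 7 were higher (4.19%) and 4 lower (11.5%). DESeq2, run as an alternative, called 4 members higher (1.91% of its 18307 genes), namely Ldha, Slc16a3, Slc2a3 and Gapdh, and 3 lower (8.79%), namely Eno3, Hk3 and Pfkfb4. The 4 with higher values are a glucose transporter, a glycolytic enzyme, the lactate-forming enzyme and a lactate exporter. The 3 with lower values are glycolysis genes too, an enolase, a hexokinase and a regulator of phosphofructokinase. The spread between libraries was wide, with a biological coefficient of variation of 0.631 over all genes.

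**Figure D2:**
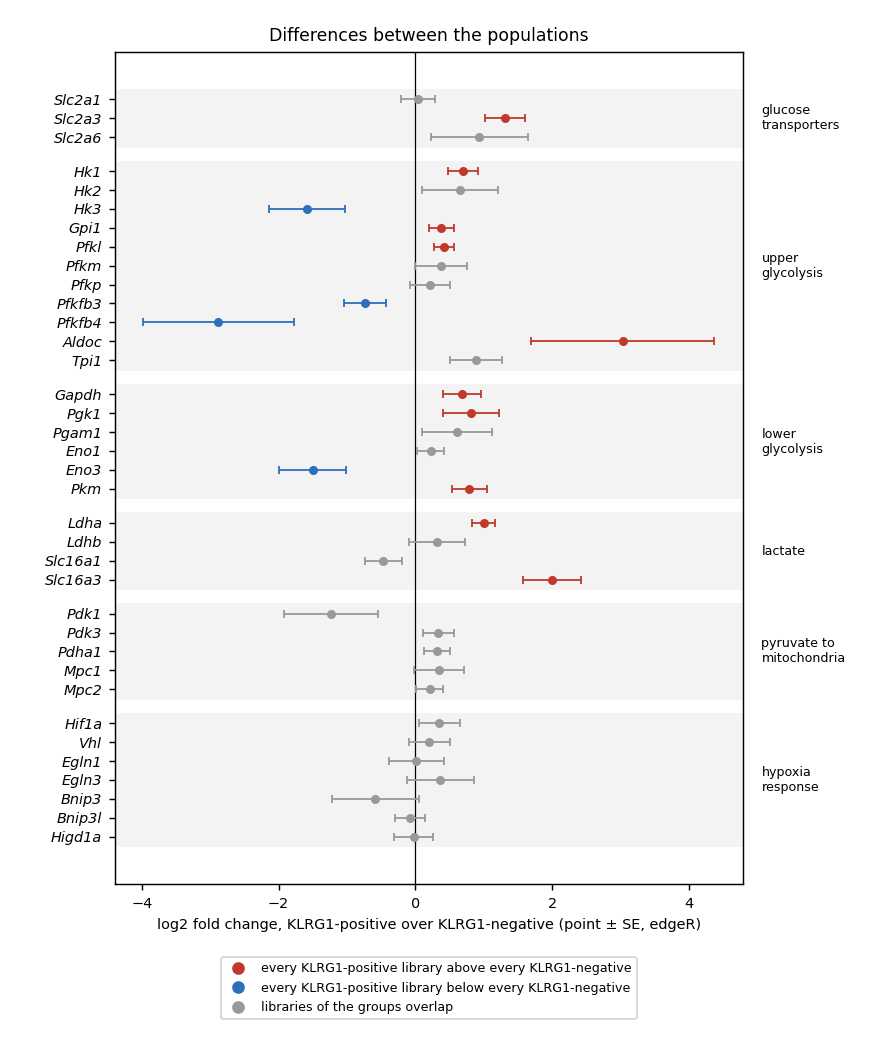
The log2 fold change (KLRG1-positive over KLRG1-negative) of each member with its standard error, grouped by role, from edgeR. Red and blue points have non-overlapping libraries; most points of the lactate and lower glycolysis groups lie right of 0, the 7 hypoxia response genes lie between -0.58 and 0.36, and 0 members passed the adjusted threshold.

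By role, and with no test of the differences between roles, median log2 fold changes were 0.93 over the 3 glucose transporters, 0.38 over the 11 upper glycolysis genes, 0.65 over the 6 lower glycolysis genes, 0.66 over the 4 lactate genes, 0.31 over the 5 genes that govern pyruvate entry into mitochondria and 0.01 over the 7 hypoxia response genes. Within upper glycolysis the log2 fold changes ran from -2.88 to 3.03. All KLRG1-positive values were above the KLRG1-negative ones for 1 transporter, 4 upper glycolysis, 3 lower glycolysis and 2 lactate genes, and below them for 3 upper and 1 lower glycolysis genes, to be read against 9.46% above and 15.2% below over all tested genes. The groups overlapped for all 12 genes of the last 2 roles.

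**Figure D3:**
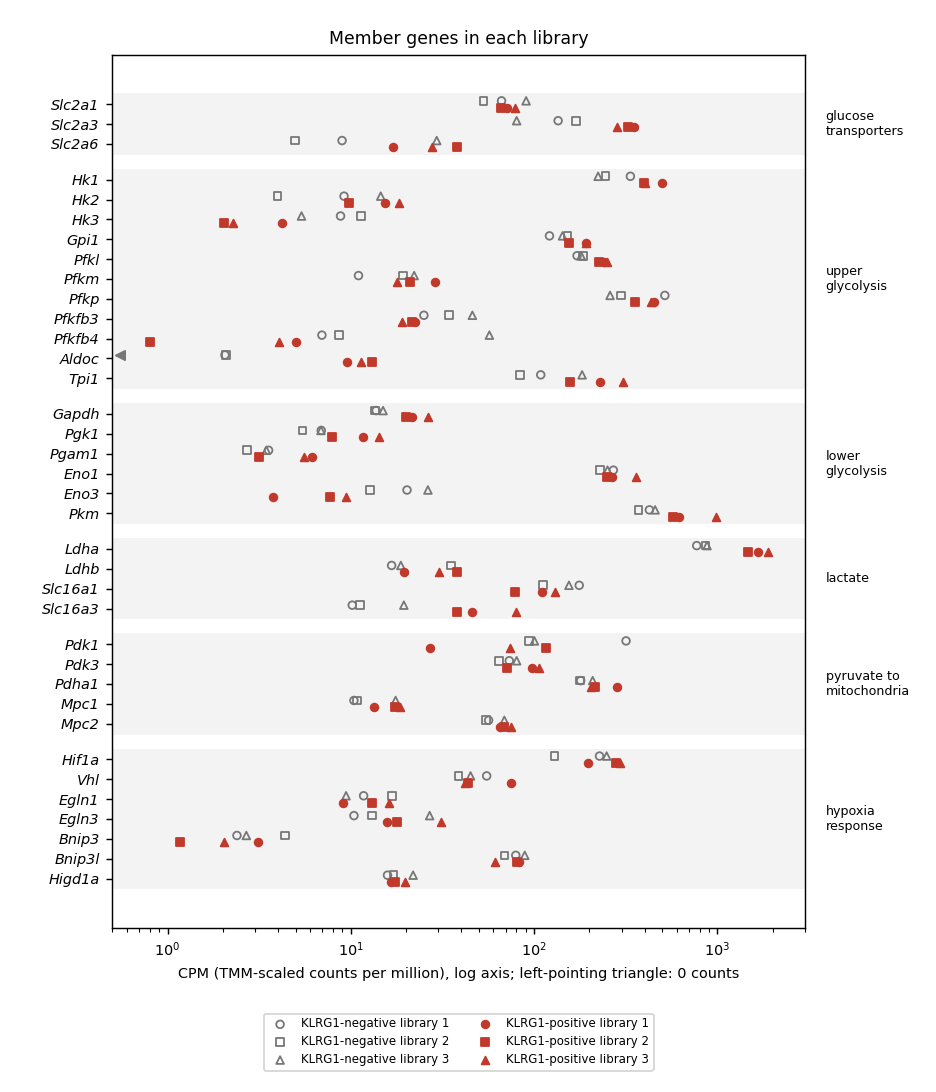
CPM of each of the 36 members in each of the 6 libraries on a log axis, open symbols for KLRG1-negative and filled for KLRG1-positive, grouped by role; the left-pointing triangle is a count of 0. Ldha and Slc16a3 show filled symbols to the right of all open ones, Pfkfb4 and Eno3 the reverse, and the hypoxia response genes intermix.

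Ranked per length (CPM per kb of counted exon), Ldha stood first in both populations at a mean of 253 CPM per kb in KLRG1-negative and 505 in KLRG1-positive cells, and Pkm second at 83.5 and 144. Pdha1, Eno1 and Tpi1 held places 3 to 5 in KLRG1-negative cells, at 50.5, 46.5 and 45.4 CPM per kb, close to each other relative to their spread. In KLRG1-positive cells Tpi1 followed Pkm at 83.6 CPM per kb. Slc16a3 went from place 31 in KLRG1-negative to 18 in KLRG1-positive cells. Pfkfb4 went from place 25 to the last, and its place in KLRG1-negative cells rests on library 3, with 57.0 CPM against 6.95 and 8.60 CPM in the other 2. The levels of genes with processed pseudogenes are understated, since reads that mapped to several places were left out, and the places shift with the unequal losses. They also depend on the annotation, as the counted exon joins all annotated exons of a gene. It spans 13401 bases for Pfkp and 5379 for Eno1, whose longest coding transcripts have 4145 and 2027 bases. The sizes of the shares per kb given below carry the same limit. Of the 50-base stretches in the Gapdh transcript, 82.5% also occurred in transcripts of other genes, 209 of them pseudogenes, and the share was 72.2% for Eno1, 68.0% for Pgk1, 62.5% for Bnip3 and 41.5% for Pgam1. It exceeded 20% for 11 members and lay under 5% for 20. For Slc16a3, Slc16a1, Slc2a3, Pfkfb4, Eno3 and Hk3 it was 0, for Ldha 16.7%, for Ldhb 27.0% and for Pkm 34.4%.

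Glucose transporters came first in the order of the pathway. Slc2a1 (GLUT1), the widespread basal transporter, stood at 66.4, 53.0 and 90.4 CPM in KLRG1-negative and at 71.5, 65.6 and 78.8 CPM in KLRG1-positive libraries. All KLRG1-positive values lay within the KLRG1-negative range (log2 fold change 0.04 ± 0.25 SE, adjusted p = 0.973). Slc2a3 (GLUT3; ENSMUSG00000003153, chr6:122727809-122801640, minus strand), a transporter with high affinity for glucose, stood at 135, 169.5 and 80.2 CPM in KLRG1-negative and at 349, 324 and 282 CPM in KLRG1-positive libraries. Its groups were separate and the same-numbered ratios were 2.58, 1.91 and 3.51. With a log2 fold change of 1.31 ± 0.30, Slc2a3 did not pass with edgeR (adjusted p = 0.0918, and 0.0983 with the replicate block) and passed with DESeq2 (adjusted p = 0.00795). Slc2a6 (GLUT6), a transporter of inner membranes, stood at 8.96, 4.97 and 29.4 CPM against 17.1, 37.9 and 27.7 CPM. KLRG1-negative library 3 alone lay inside the KLRG1-positive range. Slc2a6 had a log2 fold change of 0.93 ± 0.71, and of 2.00 without that library (adjusted p = 0.187). Taken per kb, Slc2a1 made up 50.4, 39.3 and 70.0% of the summed Slc2a1 and Slc2a3 level in KLRG1-negative libraries and 29.7, 29.5 and 36.7% in KLRG1-positive ones. The shares did not overlap, and the exact two-sided permutation p was 0.1, the smallest that 3 against 3 libraries can give (0.267 after adjustment over the 8 shares tested).

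The hexokinases, which phosphorylate glucose, did not move together. Hk1, the constitutive form bound to mitochondria, stood at 335, 245 and 223 CPM in KLRG1-negative and at 498, 398 and 404 CPM in KLRG1-positive libraries. Every KLRG1-positive value was the higher, by a log2 fold change of 0.70 ± 0.22 (adjusted p = 0.183). Hk2, the inducible form and a known HIF-1 target, was far scarcer at 9.18, 3.98 and 14.6 CPM against 15.3, 9.83 and 18.4 CPM, with overlapping groups. Hk3, a form of myeloid cells, stood at 8.79, 11.3 and 5.38 CPM against 4.22, 2.03 and 2.26 CPM, lower in every KLRG1-positive library (log2 fold change -1.58 ± 0.55, adjusted p = 0.231 with edgeR and 0.0368 with DESeq2). Summed macrophage and neutrophil markers (12 genes) lay at 100.3 to 409 CPM in KLRG1-negative and 62.7 to 336 CPM in KLRG1-positive libraries, overlapping, with Fcgr1 at 0 in the KLRG1-negative group, and their part in the Hk3 values was not tested. Hk2 made up 4.58% ± 3.15 (SD, n = 3) of hexokinase level per kb in KLRG1-negative and 4.51% ± 1.38 in KLRG1-positive cells (exact permutation p = 1.0).

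Gpi1, the isomerase that makes fructose 6-phosphate, stood at 121, 152 and 143 CPM against 193, 156 and 193 CPM. The groups just separated, by the gap between 152 and 156 CPM. Pfkl, the liver type of phosphofructokinase, the committing step, stood at 171, 185 and 180.5 CPM against 240.0, 227 and 251 CPM, with narrow groups and a log2 fold change of 0.42 ± 0.15 (adjusted p = 0.235). The platelet type Pfkp overlapped, at 516, 297 and 259 CPM against 449.8, 354 and 436 CPM, with KLRG1-negative library 1 the highest of all. The muscle type Pfkm overlapped as well, at 11, 19.2 and 22.1 CPM against 28.9, 21 and 17.9 CPM. The share of Pfkp in phosphofructokinase level per kb was 44.0% ± 11.2 in KLRG1-negative and 41.4% ± 1.96 in KLRG1-positive cells (exact permutation p = 0.9).

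Both members that encode a bifunctional enzyme setting fructose 2,6-bisphosphate, the activator of phosphofructokinase, lay lower in KLRG1-positive cells. Pfkfb3 stood at 25.0, 34.2 and 46.0 CPM in KLRG1-negative and at 22.5, 21.6 and 19.1 CPM in KLRG1-positive libraries, a log2 fold change of -0.74 ± 0.30 (adjusted p = 0.312). Pfkfb4 (ENSMUSG00000025648, chr9:108991778-109032228, plus strand) stood at 6.95, 8.60 and 57.0 CPM against 5.01, 0.801 and 4.04 CPM. No KLRG1-positive library reached the lowest KLRG1-negative one, but the size of the difference rested on KLRG1-negative library 3. Its log2 fold change was -2.88 ± 1.10 with that library (adjusted p = 0.276 with edgeR, 0.0396 with DESeq2) and -1.23 without it (adjusted p = 0.577). Pfkfb3 accounted for 69.9, 72.0 and 34.3% of the pair per kb in KLRG1-negative and 74.3, 94.6 and 75.3% in KLRG1-positive libraries, groups that did not overlap (exact permutation p = 0.1, adjusted 0.267).

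Aldoc, the brain type of aldolase, was nearly absent from KLRG1-negative cells, at 2.06, 2.09 and 0 CPM, and stood at 9.57, 13.1 and 11.4 CPM in KLRG1-positive cells, where the groups lay far apart. These values rest on 37, 53 and 0 counts against 170, 245 and 256 counts. Its log2 fold change was 3.03 ± 1.34 (adjusted p = 0.353), and 2.46 without KLRG1-negative library 3, which held no count (adjusted p = 0.136). Tpi1, triose phosphate isomerase, stood at 109, 83.4 and 183 CPM against 228, 156 and 306 CPM. The groups of Tpi1 overlapped, yet within each same-numbered pair the KLRG1-positive library was higher, by 2.10, 1.88 and 1.68-fold. With the replicate block the adjusted p of Tpi1 was 0.0925, against 0.340 without it.

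Of the lower glycolysis genes, 5 of 6 members had positive log2 fold changes. Gapdh, which makes the first NADH of the pathway, stood at 13.7, 13.6 and 15 CPM against 21.6, 20.0 and 26.5 CPM, values held down by the reads its pseudogenes share. Within that limit the groups were separate (log2 fold change 0.69 ± 0.28, adjusted p = 0.306 with edgeR and 0.0415 with DESeq2). Pgk1, which makes the first ATP, stood at 6.90, 5.44 and 6.87 CPM against 11.7, 7.85 and 14.2 CPM, again separate. Pgam1 had means of 3.25 ± 0.459 (SD, n = 3) and 4.95 ± 1.58 CPM, with overlap. Eno1, the main enolase, overlapped at 270.4, 229 and 251 CPM against 267, 249 and 360.0 CPM. Pkm, pyruvate kinase, the last step (ENSMUSG00000032294, chr9:59656368-59679375, plus strand), stood at 425, 371 and 457 CPM against 618, 569.5 and 981 CPM. The KLRG1-positive libraries were all higher and library 3 was the highest, with a log2 fold change of 0.79 ± 0.25 (adjusted p = 0.194). The counts are per gene, so the splice forms of Pkm were not separated.

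Eno3, the muscle enolase, ran the other way. It stood at 20.2, 12.8 and 26.3 CPM in KLRG1-negative and at 3.77, 7.69 and 9.46 CPM in KLRG1-positive libraries, without overlap (log2 fold change -1.50 ± 0.49, adjusted p = 0.206 with edgeR and 0.0324 with DESeq2). Skeletal and heart muscle markers (6 genes) summed to 0.0556 to 1.89 CPM in KLRG1-negative and 0.311 to 1.24 CPM in KLRG1-positive libraries, and Myh6 and Tnnt2 were at 0 throughout. The part of other cells in the Eno3 values was not tested.

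Of the 4 lactate genes, 2 had the smallest p-values of all members. Ldha (ENSMUSG00000063229, chr7:46841475-46855627, plus strand), the subunit that favours lactate formation, stood at 770.5, 861 and 877 CPM in KLRG1-negative and at 1672, 1460.0 and 1882 CPM in KLRG1-positive libraries. The lowest KLRG1-positive library lay well above the highest KLRG1-negative one, and same-numbered libraries differed by 2.17, 1.70 and 2.15-fold. Ldha had a log2 fold change of 1.00 ± 0.17 and the smallest adjusted p among the members, 0.0541, just above the threshold (0.0799 with the replicate block). DESeq2 called it (adjusted p = 1.05e-05), as did edgeR without the low count filter (adjusted p = 0.0292). When single libraries were left out the log2 fold change stayed between 0.95 and 1.13, with adjusted p from 0.0966 to 0.167. Ldhb, the subunit that favours pyruvate, overlapped at 16.7, 35.1 and 18.7 CPM against 19.5, 37.9 and 30.4 CPM. Per kb, Ldha made up 94.5% ± 2.06 of the pair in KLRG1-negative and 96.4% ± 1.43 in KLRG1-positive cells, a difference within the spread (exact permutation p = 0.3). The size of this share is approximate, since stretches shared with other genes made up 27.0% of Ldhb and 16.7% of Ldha.

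The proton-linked transporters for lactate differed from each other. Slc16a3 (MCT4; ENSMUSG00000025161, chr11:120948480-120960868, plus strand), known as the exporter of glycolytic cells and a HIF-1 target, stood at 10.2, 11.2 and 19.5 CPM in KLRG1-negative and at 45.8, 38.0 and 79.5 CPM in KLRG1-positive libraries. The groups were apart, with same-numbered ratios of 4.50, 3.38 and 4.08. For Slc16a3 this gave a log2 fold change of 2.00 ± 0.42, with an adjusted p of 0.0787, of 0.0680 with the block and of 0.000255 with DESeq2. Leaving out single libraries gave log2 fold changes of 1.76 to 2.36 and adjusted p from 0.133 to 0.211. Slc16a1 (MCT1; ENSMUSG00000032902, chr3:104638668-104658462, plus strand), which carries lactate in both directions, stood at 176, 112 and 155 CPM against 110.0, 79.0 and 130.1 CPM. It was lower in KLRG1-positive cells in all 3 pairs, but the groups overlapped (log2 fold change -0.47 ± 0.27, adjusted p = 0.494).

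The share of Slc16a3 in the pair was also compared. It accounted for 4.59, 7.74 and 9.47% of the summed level per kb in KLRG1-negative libraries and for 25.7, 28.6 and 33.7% in KLRG1-positive ones. This difference of 22.1 percentage points was several times the spread within either group (SD 2.47 and 4.04 points), with an exact permutation p of 0.1 (0.267 adjusted). A share within a library does not depend on its total. Slc16a1 stayed the more abundant transporter per kb in all 6 libraries.

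**Figure D4:**
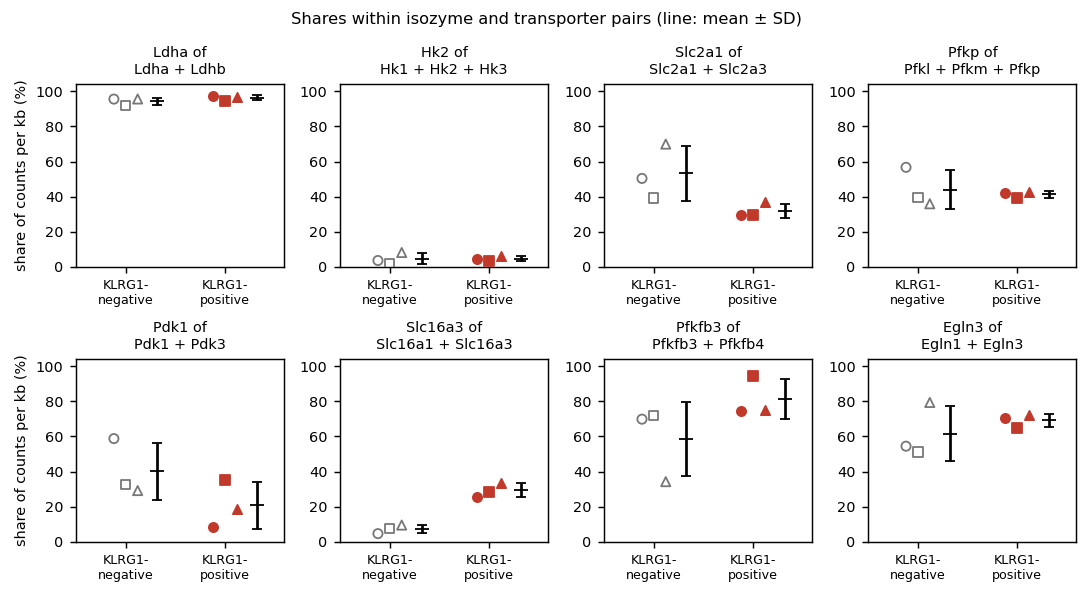
Share of counts per kb, in percent, that 1 gene takes of its isozyme or transporter group in each library, with the mean and SD per population (n = 3). Slc16a3 takes 4.59 to 9.47% in KLRG1-negative and 25.7 to 33.7% in KLRG1-positive libraries, while Ldha takes 92.1 to 97.6% of Ldha and Ldhb.

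Genes that govern what happens to pyruvate in mitochondria showed little separation. Mpc1 and Mpc2 form the carrier of the inner membrane. Mpc1 stood at 10.4, 10.8 and 17.5 CPM against 13.4, 17.4 and 18.6 CPM, and Mpc2 at 56.4, 54.5 and 68.8 CPM against 64.9, 68.1 and 75.1 CPM. Both overlapped and both were higher in all 3 pairs. Pdha1, the catalytic subunit of pyruvate dehydrogenase, stood at 179, 178 and 208 CPM against 282, 215 and 204 CPM (log2 fold change 0.31 ± 0.19, adjusted p = 0.531). Pdk3, one of the kinases that inactivate it, stood at 73.2, 64.2 and 80.2 CPM against 97.8, 70.7 and 106 CPM, also with overlap. Pdk1, another such kinase and a HIF-1 target, varied most. It stood at 317, 94.0 and 100.3 CPM in KLRG1-negative and at 27.1, 116 and 74.0 CPM in KLRG1-positive libraries. Both extreme values came from the libraries numbered 1, the KLRG1-negative one the highest of all and the KLRG1-positive one the lowest. KLRG1-negative library 1 also had the highest T cell marker sum (6353 CPM) and the lowest ILC2 marker sum (1469 CPM), and their part in its Pdk1 level was not tested. The log2 fold change of Pdk1 was -1.24 ± 0.69 (adjusted p = 0.479), and -0.02 without both libraries numbered 1.

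The hypoxia response genes overlapped throughout. Hif1a, the oxygen-regulated subunit of HIF-1, was well expressed in both populations, at 227, 129 and 248 CPM in KLRG1-negative and at 197, 279 and 295 CPM in KLRG1-positive libraries. Its pairs went in both directions (log2 fold change 0.35 ± 0.30, adjusted p = 0.688), and the activity of HIF-1 is set mainly by the stability of the protein, which mRNA does not show. Vhl, which marks hydroxylated HIF for destruction, stood at 55.1, 38.6 and 45.0 CPM against 74.4, 43.6 and 42.0 CPM. The oxygen-sensing hydroxylase Egln1 stood at 11.7, 16.8 and 9.42 CPM against 9.01, 13 and 16.2 CPM. Its inducible relative Egln3 stood at 10.4, 13 and 26.9 CPM against 15.8, 17.9 and 31.0 CPM, higher in all 3 pairs. Of the classical targets that act at mitochondria, Bnip3l, a mitophagy receptor, stood at 79.4, 69.0 and 88.8 CPM against 83.1, 81.1 and 60.8 CPM. Higd1a stood at 15.8, 17.1 and 21.9 CPM against 16.6, 17.5 and 19.8 CPM. The related receptor Bnip3 was scarce, with means of 3.15 ± 1.07 and 2.10 ± 0.962 CPM. None of these 7 reached an adjusted p under 0.688, and the SE of their log2 fold changes ran from 0.21 to 0.64, so modest differences were not detectable with these libraries.

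**Figure D5:**
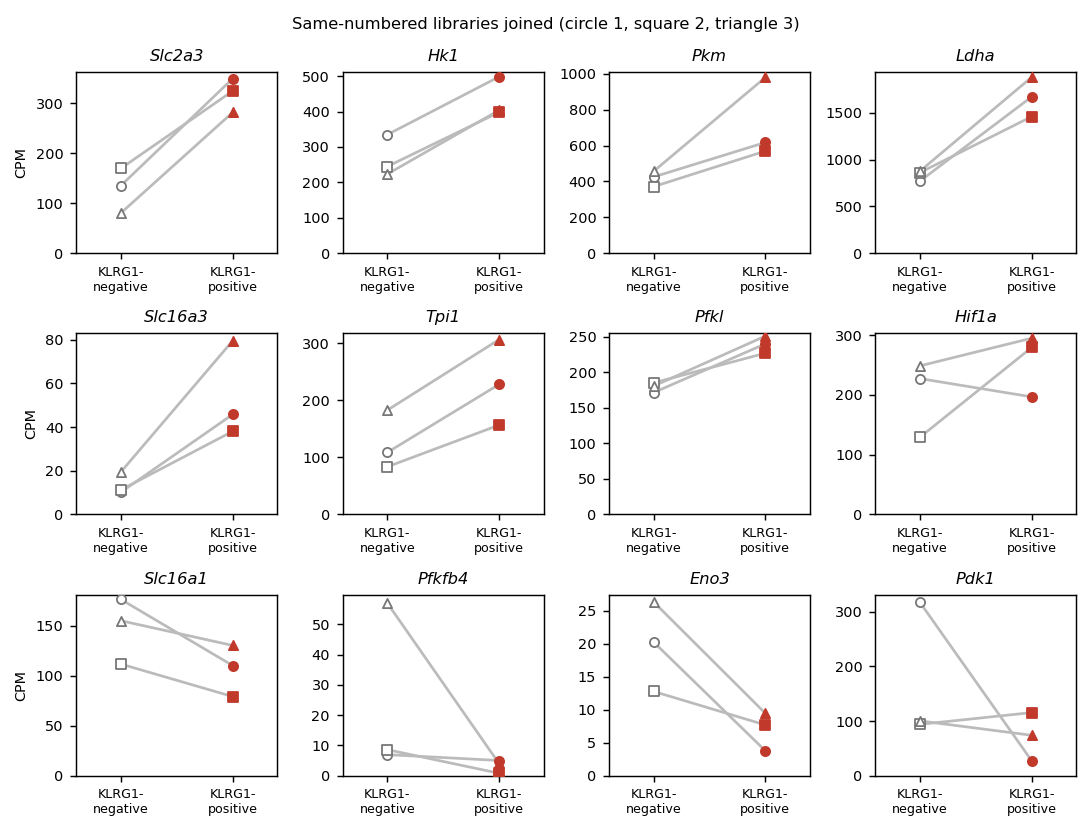
CPM of 12 members in KLRG1-negative (left) and KLRG1-positive (right) libraries, with same-numbered libraries joined by a line; each axis starts at 0. The lines of Slc2a3, Hk1, Pkm, Ldha, Slc16a3, Tpi1 and Pfkl all climb, those of Slc16a1, Pfkfb4 and Eno3 all descend, and those of Hif1a and Pdk1 go both ways.

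Libraries numbered 3 often held the highest member values of their group, and those numbered 2 the lowest. KLRG1-negative library 3 held the highest value of its group for 20 of the 36 members and KLRG1-positive library 3 likewise for 20, while KLRG1-positive library 2 held the lowest for 19 and KLRG1-negative library 2 the lowest for 18. KLRG1-negative library 1 held the highest for 8 and the lowest for 12, and KLRG1-positive library 1 for 12 and 11. These counts do not show whether the same members were extreme in both groups, and they were not made over all tested genes. For Tpi1, whose groups overlapped, the joined lines in the plot of same-numbered libraries do not cross. For Slc16a1, whose groups overlapped as well, the lines of the libraries numbered 1 and 3 cross.

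Other genes of these pathways were read from lists that hold no member. Of 13 other glycolysis genes, 7 were tested and 0 were called in either direction (1 at an unadjusted p under 0.05, higher, by edgeR, and 0 by DESeq2). Unlike the members, 6 of these 7 had negative log2 fold changes, with a median of -0.33. Bpgm, which makes 2,3-bisphosphoglycerate, stood at 41.9, 48.5 and 51.2 CPM against 105, 73.1 and 67.3 CPM (adjusted p = 0.178). Eno2, the neuronal enolase, had a log2 fold change of -1.28 with overlapping groups (adjusted p = 0.486). Of 8 other SLC2A genes, 3 were tested and 0 called (0 at an unadjusted p under 0.05 by edgeR, and 0 by DESeq2). Of these 3, 2 had negative log2 fold changes, with a median of -0.31. Slc2a10 had a log2 fold change of -6.00 (adjusted p = 0.339), on 129, 0 and 530 counts against 9, 0 and 0. Slc2a8 had one of 0.675 (adjusted p = 0.685), and Slc2a4, the insulin-responsive transporter, had no count. The pentose phosphate pathway, which branches off at glucose 6-phosphate to make NADPH and ribose, had 7 genes tested, 0 called (2 higher at an unadjusted p under 0.05 by edgeR, and 0 by DESeq2) and a median log2 fold change of 0.32. Pgd stood at 83.9, 81.5 and 101 CPM against 128, 129 and 126 CPM (log2 fold change 0.52 ± 0.17, adjusted p = 0.209), and Taldo1 at 182, 206 and 216 CPM against 274, 265 and 270.2 CPM (0.42 ± 0.15, adjusted p = 0.243). In both genes the 3 KLRG1-positive libraries lay close together and above the others.

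Of 15 other lactate and pyruvate genes, 13 were tested, 1 rose and 0 fell (1 was lower at an unadjusted p under 0.05 by edgeR, and 1 by DESeq2). Log2 fold changes were positive for 8 of the 13 and negative for 5, with a median of 0.13. Emb encodes embigin, an ancillary protein that carries SLC16A transporters to the cell surface (ENSMUSG00000021728, chr13:117208536-117274415, plus strand). It stood at 471, 518 and 469.7 CPM in KLRG1-negative and at 985, 1017 and 962 CPM in KLRG1-positive libraries. Both groups were tight and far apart, with same-numbered ratios of 2.09, 1.97 and 2.05. Emb had a log2 fold change of 1.02 ± 0.14 (adjusted p = 0.0410). The call was lost with the replicate block (adjusted p = 0.0680) and when any single library was left out (adjusted p from 0.0702 to 0.153), while DESeq2 gave 7.51e-08. The other ancillary protein, Bsg (basigin), averaged 236 ± 38.1 against 296 ± 55.2 CPM, with overlap. The gene that DESeq2 called lower was Pdk4, a pyruvate dehydrogenase kinase of fasting and fat oxidation, with 26, 68 and 489 counts in the KLRG1-negative libraries and 0 in each KLRG1-positive one (adjusted p = 0.123 with edgeR, 1.57e-06 with DESeq2). KLRG1-negative library 3, its highest, also had the highest fibroblast marker sum (10990 CPM), and the part of these cells was not tested. Bsg and Pdk4 are named here after their values were seen.

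Of 19 other hypoxia response genes, 17 were tested, 0 rose and 1 fell (4 were higher and 2 lower at an unadjusted p under 0.05 by edgeR). Over the whole list DESeq2 called 1 higher and 3 lower. Among the lower ones was Ndufa4l2, which the low count filter of edgeR had left out. It had 8, 15 and 16 counts in the KLRG1-negative and 1, 0 and 0 in the KLRG1-positive libraries (adjusted p = 0.0402 with DESeq2). Adm, the vasodilator peptide adrenomedullin and a HIF target, stood at 10.3, 11.2 and 17.1 CPM in KLRG1-negative and at 0.338, 1.01 and 0.799 CPM in KLRG1-positive libraries. Its log2 fold change was -4.15 ± 0.61 (adjusted p = 0.0430), a call lost with the replicate block (adjusted p = 0.0748) and when any single library was left out (adjusted p from 0.0632 to 0.169). The fibroblast, T cell, and NK and ILC1 marker sums given above were, like Adm, lower in every KLRG1-positive library. The part of any of these cells in the Adm values was not tested. The rest of the list went both ways. Chosen after their values were seen, P4ha1, a collagen prolyl hydroxylase, stood at 51.3, 36 and 53.5 CPM against 18.5, 18.4 and 20.2 CPM (adjusted p = 0.0693 with edgeR and 6.79e-05 with DESeq2), whereas Epas1, which encodes HIF-2 alpha, stood at 64.6, 27.2 and 27.1 CPM against 113, 73.9 and 100.1 CPM (adjusted p = 0.203), and Ero1l, the oxidase of disulfide formation in the endoplasmic reticulum, at 143, 210.5 and 275 CPM against 269.6, 434 and 683 CPM (adjusted p = 0.240). The gene that DESeq2 called higher was Hif3a, which encodes HIF-3 alpha, with 0 counts in each KLRG1-negative library and 21, 19 and 30 counts in the KLRG1-positive ones (adjusted p = 0.0682 with edgeR and 0.000439 with DESeq2). The median log2 fold change of the list was 0.18.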

How the data were processed

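RNA was sequenced from 6 libraries of sorted lung ILCs (SMARTer amplification of full-length cDNA, Nextera XT libraries, per the labels' protocols). The values are unnormalized counts that the authors obtained with featureCounts 1.5.2, ignoring strand, on Ensembl release 90 models of GRCm38, per the file headers. STAR 2.4.1d, bcl2fastq and Subread 1.5.2 are named in the submitters' processing notes. Multi-mapping reads (26.3 to 32.3% of each library) and reads ambiguous between genes were left out of the counts, per the deposited summary, so genes with close copies are understated. Without strand, 14 members whose exons overlap another gene may hold some of its reads. Assigned reads per library ranged from 17323004 to 23946073.

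The populations were compared in edgeR 4.0.16 (R 4.3.3) with its quasi-likelihood test, robust dispersion, TMM factors, filterByExpr by group, two-sided, Benjamini-Hochberg over 15197 genes, threshold 0.05. An adjusted p without another name comes from this test. SE is that of the log2 fold change. Alternatives were DESeq2 1.42.0, library size only, no filter, the replicate number as a block and each library left out. Isozyme shares used exact permutation tests over libraries (scipy 1.17.1). The scripts were tested on simulated data whose planted changes were larger than those of most members. That test does not measure how well modest differences are found. Shared 50-base stretches were found in GENCODE M21 transcripts.

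When each library was expressed as its deviation from the mean of its group, same-numbered libraries correlated across genes at r of 0.38 (number 1), 0.34 (number 2) and 0.19 (number 3). Same-numbered libraries were therefore also compared as pairs. This pairing was read from the data, since the labels do not state a shared mouse or day. The main edgeR fit and the permutation tests treated the libraries as unpaired, and only the fits with the replicate block used the numbers.

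The members, the other lists and the alternatives were chosen with earlier results of these data known. All 36 members are accounted for, with values per library for those averaging at least 10 CPM in a group or with separate groups. From each other list the genes past the threshold are named, or else the 2 with the smallest p.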

Additional observations from a re-analysis of the deposited data

How the results depend on the processing

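Between TMM, library size only and DESeq2 size factors the median log2 fold change of all tested genes moved from -0.05 to -0.08 and -0.05, so the scaling moved no member by much. Over 14 alternative settings, 29 of the 36 members kept their direction in all, and the median of the members stayed between 0.30 and 0.45. Of the members' log2 fold changes under these settings, 466 kept their direction and their side of the threshold, 17 newly passed it and 21 changed sign. As 0 members passed in the main fit, keeping the side of the threshold means staying uncalled. All settings reuse the same libraries, so these figures are no measure of replication.

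The count of members called higher was 4 with DESeq2, 7 with DESeq2 and the replicate block (a fit added after the data were seen) and 1, Ldha, in edgeR without the low count filter. The count called lower was 3 and 2 in those DESeq2 fits. Over all genes DESeq2 called 350 higher (1.91%) and 1609 lower (8.79%), and 594 and 1842 with the block, so calls also rose outside the members. The shares that belong to the block fit were not computed. EdgeR without the filter called 37 genes higher. The replicate block in edgeR called 0 members in either direction, changed no member's call and lost Emb and Adm, so that the lists of other lactate and hypoxia genes each went from 1 to 0. Both lists also went to 0 when any single library was left out and without both libraries numbered 1, 2 or 3. With DESeq2 the other lactate list had 1 lower, also with the block, and the other hypoxia list had 1 higher and 3 lower, or 4 higher and 2 lower with the block.

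Over all genes, 19 were higher and 184 lower. DESeq2 called 350 and 1609, DESeq2 with the block 594 and 1842, edgeR without the filter 37 and 282, and edgeR with the block 0 and 53 (1025 and 1876 at an unadjusted p under 0.05). Leaving out single libraries gave 0 to 5 higher and 0 to 159 lower. Without both libraries numbered 1, 2 or 3 (also added) 3, 0 and 0 were higher and 168, 0 and 0 lower.

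Sign changes concerned Slc2a1 (-0.01 to 0.28 when single libraries were left out), Pfkm (0.37 with all libraries and -0.076 without both libraries numbered 1), Vhl (-0.10 to 0.47 when single libraries were left out) and Bnip3 (-0.58 with all libraries and 0.13 without both numbered 2). Egln1 was -0.037 with library size only and -0.29 without both numbered 3, and -0.15 to 0.36 when single libraries were left out. Bnip3l was 0.03 without the filter and 0.23 without both numbered 3, and -0.14 to 0.18 with single libraries left out. Higd1a was 0.08 without the filter, 0.055 without both numbered 2 and 0.13 without both numbered 3, and -0.11 to 0.14 with single libraries left out. The difference in the Hk2 share ran from -1.32 to 1.71 percentage points and that in the Pfkp share from -6.60 to 3.80 points when single libraries were left out. The cause of these changes was not tested. Precision is limited by 3 libraries per group with a biological coefficient of variation of 0.631.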
